A study of Mus musculus with 8 samples.

Results

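Genes of the receptor for granulocyte-macrophage colony-stimulating factor (GM-CSF), of the JAK2 and STAT5 signalling behind it and of its feedback inhibitors were followed in mouse CD11c positive bone marrow cells. The members were chosen by name: Csf2ra, Csf2rb, Csf2rb2, Jak2, Stat5a, Stat5b, Cish, Socs2, Socs3 and Csf1r, 10 genes in all. Of these, 9 were rows of the deposited table of 11756 genes, and all 9 passed a filter on low values that left 10091 genes for testing. Socs3 is not a row of that table and was not analysed here. Cells came from the femurs and tibias of C57BL/6 mice, and no allele beyond the strain is named for either group. They were sorted by flow cytometry for CD11c, the integrin chain that marks dendritic cells and some macrophages. On day 6 of culture, cells of 4 libraries received acLDL, low density lipoprotein acetylated so that scavenger receptors take it up, for 24 h, and those of 4 control libraries did not. The comparison asks what a lipid-rich environment like that of an atherosclerotic vessel does to these cells. The sources used here do not give the age or number of mice or the cytokine in the culture medium. Whether libraries of a group came from different mice or wells is not stated. The p-values therefore speak only of the spread between libraries, which may be technical.

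GM-CSF binds an alpha chain, encoded by Csf2ra, which then pairs with a common beta chain shared with the receptors for interleukins 3 and 5. Mice carry a second beta chain gene, Csf2rb2, whose product serves the interleukin 3 receptor only. JAK2 sits on the beta chain and phosphorylates STAT5A and STAT5B, which enter the nucleus and switch on genes that include the feedback inhibitors Cish, Socs2 and Socs3. GM-CSF is widely used to grow dendritic cells from bone marrow. Such cultures also hold macrophage-like cells, which carry the receptor for macrophage colony-stimulating factor encoded by Csf1r.

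STAT5 binds DNA at a palindrome whose letters are TTCNNNGAA, which reads the same on both strands. RefSeq promoters of GRCm38.p6, from 250 bases before to 50 after a start site, were given for 7 of the 10 members, and 3 of these 7 held the palindrome. No entry was found for Csf2rb, Socs2 and Csf1r. The palindrome was present for 9.55% of the 27025 gene symbols of that table, counted per gene, and in 8.30% of its 32851 promoters, counted singly. Of these promoters, 0.457% held 2 or more copies. The Cish promoter is shown because it held 2 copies, and the Csf2rb2 promoter because Csf2rb2 had the largest log2 fold change of the members in size. Capitals mark the palindrome. The Cish window is chr9:107296409-107296708 (plus strand) and the Csf2rb2 window chr15:78305672-78305971 (minus strand).
Cish: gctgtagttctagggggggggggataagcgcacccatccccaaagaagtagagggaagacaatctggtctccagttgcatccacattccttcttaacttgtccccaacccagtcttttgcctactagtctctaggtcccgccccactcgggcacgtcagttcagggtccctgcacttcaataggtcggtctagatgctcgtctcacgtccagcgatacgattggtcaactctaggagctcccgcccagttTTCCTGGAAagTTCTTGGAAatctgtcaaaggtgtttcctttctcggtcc
Csf2rb2: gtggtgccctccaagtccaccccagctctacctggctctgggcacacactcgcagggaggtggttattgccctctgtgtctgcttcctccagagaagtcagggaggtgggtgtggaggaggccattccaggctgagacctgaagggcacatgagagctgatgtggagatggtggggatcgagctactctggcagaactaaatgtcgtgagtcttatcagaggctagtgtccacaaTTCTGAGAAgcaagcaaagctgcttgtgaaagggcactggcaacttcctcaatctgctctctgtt
The Cish copies were TTCCTGGAA and TTCTTGGAA, starting at bases 1 and 12 counted from the RefSeq start. The Cish window lies inside the gene span given for Cish below, so this start is not the start of that span. The Csf2rb2 copy was TTCTGAGAA, starting 15 bases before the RefSeq start of Csf2rb2. The third promoter, that of Socs3, held TTCTTAGAA. The windows of Csf2ra, Jak2, Stat5a and Stat5b held no such letters. A match in the sequence is a description and does not show binding.

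The libraries differed in ways that touch these genes. Values were deposited in a normalized scale, here called normalized signal, with library totals from 3917430 to 4385050. Of all 11756 genes, 18.5% were listed at 0 in acLDL library 2 and 21.9% in acLDL library 3. In the other libraries this share was 5.63% to 12.0%. An index of short transcripts (the mean log2 deviation of 489 tested genes with no coding transcript of 1000 nt or more) was -2.25 in acLDL library 3, -1.36 in acLDL library 2 and -0.30 in acLDL library 4. It was 0.06 in control library 1, from 0.72 to 1.08 in the other controls and 1.11 in acLDL library 1. By this index acLDL library 1 stood with the controls, and the other 3 acLDL libraries stood below all controls. The index and acLDL therefore cannot be told apart in libraries 2 to 4. The first principal component of all tested genes, the axis of their largest variation, held 62.6% of the variance. It was 128.6, 95.6 and 32.2 in acLDL libraries 3, 2 and 4, 9.2 in control library 1, and from -75.3 to -56.5 in the rest. A fit with the index as a covariate thus also takes out much variation shared by genes of any length. Itgax, which encodes CD11c itself, was listed at 189 in acLDL library 1, 10 in library 2, 0 in library 3 and 42.7 in library 4, against 81.5 to 195 in controls. Over 12 of 12 dendritic cell markers, summed signal was 705 to 15330 in the acLDL group and 5218 to 13844 in the control group. The same ranges were 3286 to 5851 and 4654 to 5577 over 12 of 12 macrophage markers, and 8790.2 to 18790 and 11852 to 20911 over 11 of 12 granulocyte markers. They were 147 to 1134 and 774 to 1192 over 5 of 5 eosinophil markers, 21 to 80.5 and 54.9 to 132 over 4 of 6 mast cell and basophil markers, and 29.4 to 76.8 and 16.6 to 31.4 over 2 of 8 lymphocyte markers. Hbb-bs was the 1 erythroid marker listed, at 54.1 to 189.7 with acLDL and 164 to 1429 in controls. For dendritic cell, macrophage, granulocyte, eosinophil, and mast cell and basophil markers, the highest acLDL sum was that of acLDL library 1. For the same lists, the sums of acLDL libraries 2 to 4 were below every control. They were 1048, 705 and 4003 for dendritic cell markers, and 3614, 3286 and 3492 for macrophage markers. Of the granulocyte sum of 9934 in acLDL library 3, 9125 was Mmp8. S100a8 was at 36.3 in that library, against 2757 to 6778 in controls. Mean log2 values of the granulocyte markers were lower with acLDL for 8 and higher for 3. Those of the tested dendritic cell markers were lower for 10 and higher for 1, and of the tested macrophage markers lower for 8 and higher for 3. No marker was at 0 in every library, and the part of other cells in the results below was not tested. In bulk RNA, fewer cells of a type and less RNA per cell cannot be told apart.

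No member passed limma's threshold of an adjusted p under 0.05, and neither did any other gene (percent called 0). At an unadjusted p under 0.05, 5 of the 9 tested members were past the threshold, against 16.4% of all tested genes. Of these 5, Csf2ra, Cish, Socs2 and Csf1r had higher means with acLDL (7.42% of all tested genes did so) and Csf2rb2 a lower mean (8.93%). Of the 9, 5 had a higher mean log2 value with acLDL, against 44.3% of all tested genes. The median log2 fold change was 0.42 over the 9 members and -0.13 over all tested genes. Groups did not overlap for 1 member, Csf2ra, which was higher, against 5.64% of all tested genes (3.44% higher and 2.2% lower). Without acLDL library 1, 4 members passed the adjusted threshold, against 21.7% of all tested genes: Csf2ra, Socs2 and Csf1r were higher (7.28% of all tested genes) and Csf2rb2 was lower (14.4%). Members share the 8 libraries, so these counts are a description.

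**Figure D1:**
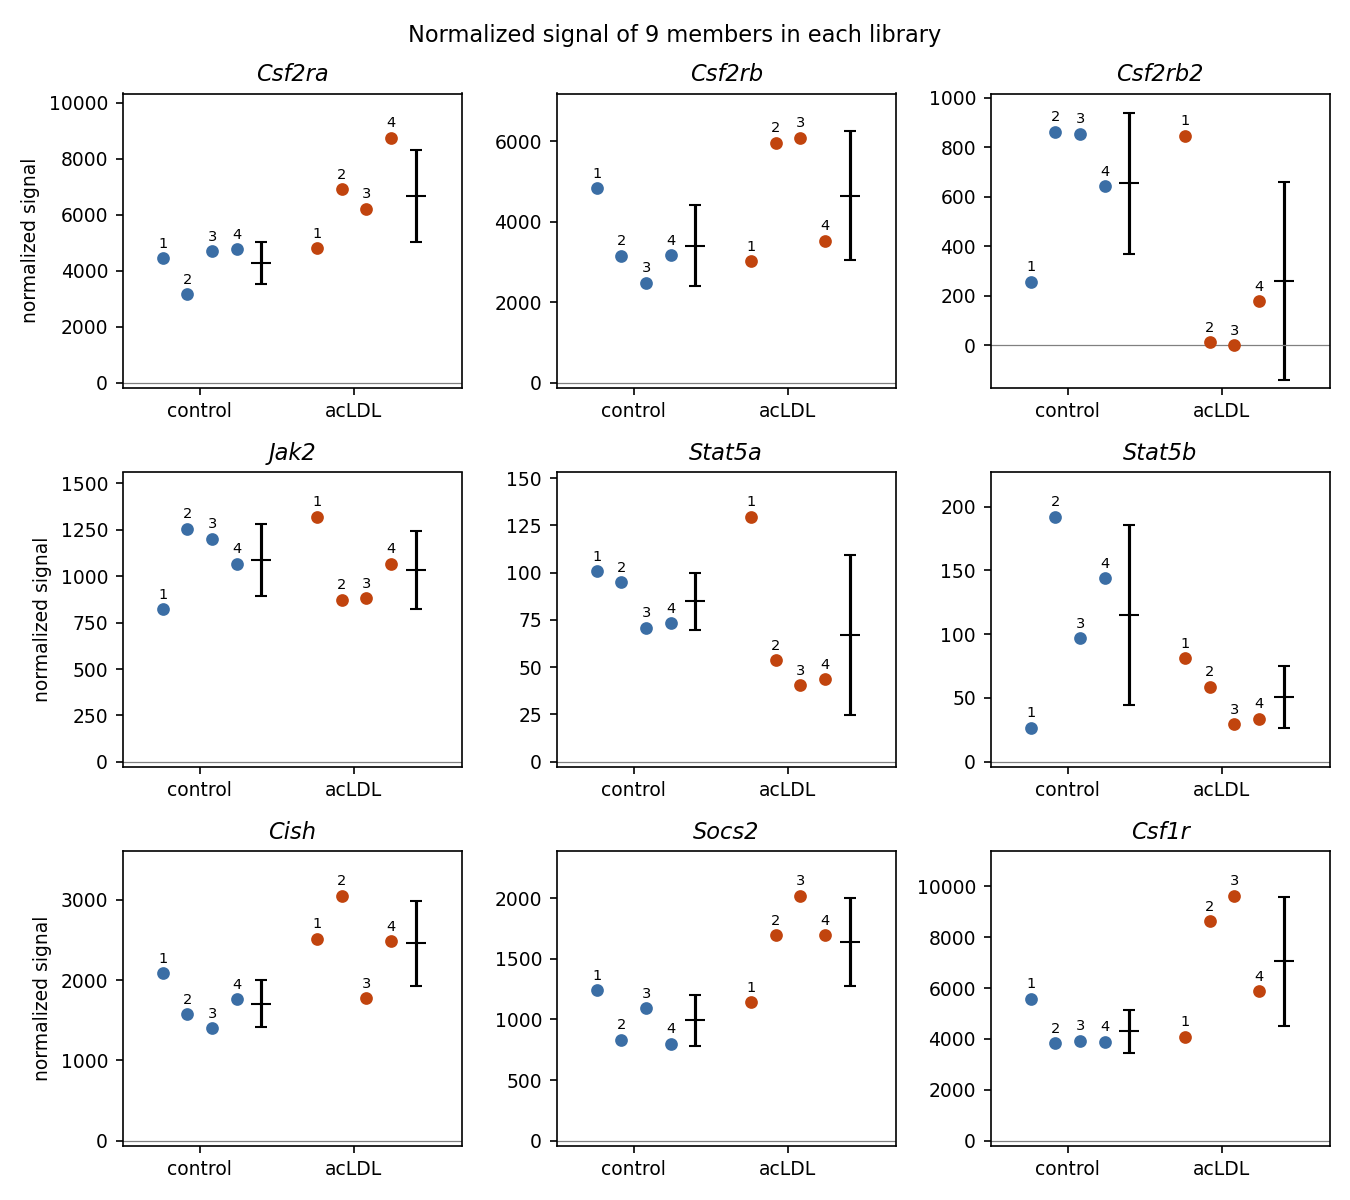
Normalized signal (vertical axis, linear) of 9 genes in 4 control libraries (blue) and 4 acLDL libraries (orange); digits are library numbers and black bars the mean ± SD. All acLDL points of Csf2ra lie above the control points, while acLDL library 1 lies within the range of the controls for Csf2rb, Csf2rb2, Socs2 and Csf1r.

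Csf2ra, the gene of the alpha chain that gives the receptor its specificity for GM-CSF (chromosome 19, 61223957 to 61228429, minus strand, GRCm38), had a higher mean with acLDL. Its normalized signal was 4810.3, 6918, 6225 and 8761 in acLDL libraries 1 to 4, and 4457, 3167, 4697 and 4778 in control libraries 1 to 4. Every acLDL library was above every control, but acLDL library 1 exceeded the highest control by little, and the other 3 acLDL libraries set the difference. The acLDL mean was 6679 ± 1642 (SD, n = 4), against 4275 ± 751 in controls. The log2 fold change was 0.63 (SE 0.23, limma's adjusted p = 0.298). It was 0.62 without acLDL libraries 2 and 3 (limma's adjusted p = 0.994), and 0.49 with the short-transcript index as a covariate (adjusted p = 0.986). Without acLDL library 1 it was 0.78 and passed, at limma's adjusted p = 0.034.

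Csf2rb, the gene of the common beta chain that carries the signal (chromosome 15, 78325752 to 78353847, plus strand), was high in acLDL libraries 2 and 3. It stood at 3022, 5960.4, 6089 and 3531 in acLDL libraries 1 to 4, and at 4835, 3152, 2481 and 3165 in the controls. The groups overlapped, with acLDL libraries 1 and 4 below control library 1. The means were 4650.5 ± 1601 with acLDL (SD, n = 4) and 3408 ± 1004 in controls, and the log2 fold change was 0.42 (SE 0.30, limma's adjusted p = 0.404). It turned to -0.02 without acLDL libraries 2 and 3, and to -0.11 with the short-transcript covariate.

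Csf2rb2, the second beta chain gene (chromosome 15, 78282507 to 78305721, minus strand), went the other way and had the widest range. Its signal was 846, 12.2, 0 and 178 in acLDL libraries 1 to 4, and 256, 861, 854 and 642 in control libraries 1 to 4. A value listed at 0 may be a low estimate, since no value of the table lies between 0 and 5. The 3 acLDL libraries numbered 2 to 4 were below every control, and acLDL library 1 was among the highest libraries. The acLDL mean was 259 ± 399.8 (SD, n = 4), against 653 ± 284 in controls. The log2 fold change was -3.30 (SE 1.42, limma's adjusted p = 0.298). It was -0.59 without acLDL libraries 2 and 3 (limma's adjusted p = 0.994), and -0.17 with the short-transcript covariate (adjusted p = 0.999). Without acLDL library 1 it was -4.57, at limma's adjusted p = 0.030.

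The libraries stood in nearly the same order for Csf2rb2 as for the short-transcript index, from acLDL library 3 through 2 and 4 to control library 1 and then the rest, although its longest coding transcript has 4740 nt. Csf1r had these first 4 libraries in the reverse order of signal. Csf2ra and Cish did not line up in this way: acLDL library 4 was highest for Csf2ra, and acLDL library 3 was 1 of the middle libraries for Cish.

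**Figure D2:**
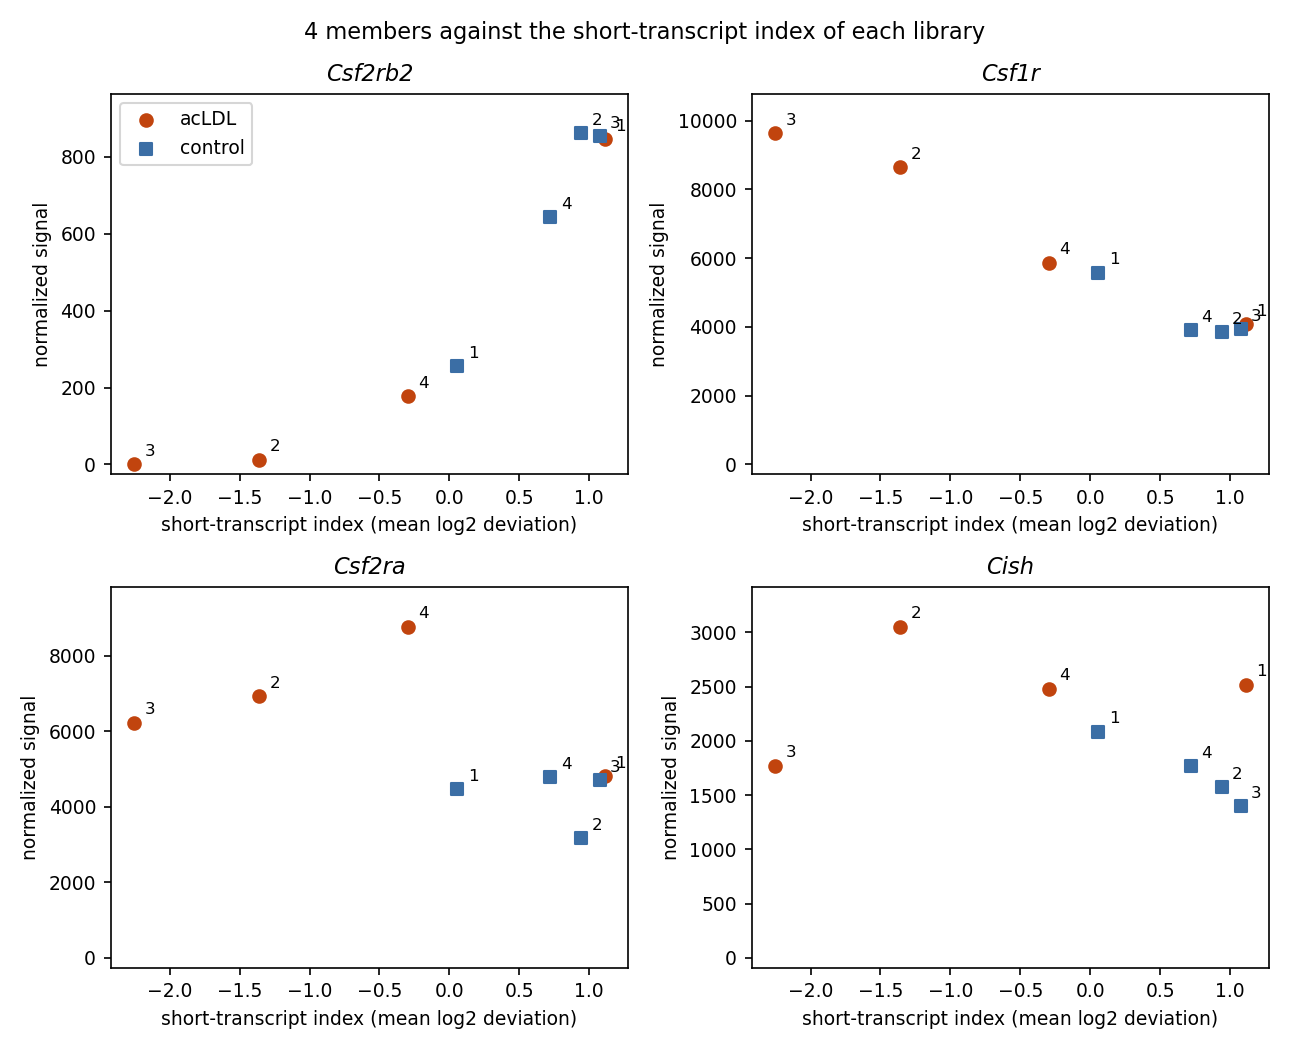
Normalized signal (vertical axis, linear) of Csf2rb2, Csf1r, Csf2ra and Cish against the short-transcript index of each library (horizontal axis, mean log2 deviation); circles are acLDL libraries, squares controls, digits library numbers. Csf2rb2 is lowest and Csf1r highest in acLDL library 3, which has the lowest index (-2.25).

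The 2 beta chain genes are close paralogs, so the sharing of sequence was measured on their longest coding transcripts in GENCODE mouse release 21. Of the distinct stretches of 31 bases in the Csf2rb transcript, 28.1% also occurred in a Csf2rb2 coding transcript, and of those of Csf2rb2, 29.2% occurred in Csf2rb. Reads of a kit that primes at the poly(A) tail come from near the 3' end. In the last 500 bases, 1.28% were shared in either direction, and in the last 300 bases 0 were. The labels' protocols name a 3' kit but the design text speaks of 5' quantification, and ends of shorter transcripts were not searched. Reads assigned to the wrong paralog were therefore not excluded. The signal of both genes together was 3868, 5973, 6089 and 3709 in acLDL libraries 1 to 4 and 5091, 4014, 3334 and 3807 in the controls. This sum averaged 4910.0 ± 1297 in the acLDL group (SD, n = 4) and 4061 ± 743 in the controls, and the groups overlapped. Csf2rb2 made up 21.9%, 0.205%, 0% and 4.80% of it in acLDL libraries 1 to 4, and 5.02%, 21.5%, 25.6% and 16.9% in the controls. The log2 ratio of Csf2rb to Csf2rb2 within a library averaged 6.2 ± 3.84 with acLDL and 2.48 ± 1.20 in controls, a difference of 3.72 that became 0.57 without acLDL libraries 2 and 3. Control library 1, at 4.21, was close to acLDL library 4, at 4.27.

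Jak2, the kinase bound to the beta chain (chromosome 19, 29251828 to 29313080, plus strand), differed least between the groups. It was listed at 1321, 873, 882 and 1068 in acLDL libraries 1 to 4 and at 824, 1256, 1203 and 1068 in the controls, so the groups overlapped throughout. The means were 1036 ± 210.3 with acLDL (SD, n = 4) and 1088 ± 193 in controls. The log2 fold change was -0.07, with a 95% interval from -0.55 to 0.41 (limma's adjusted p = 0.849). It turned to 0.15 without acLDL libraries 2 and 3 and to 0.24 with the short-transcript covariate.

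Stat5a and Stat5b, the neighbouring genes of the transcription factors that JAK2 activates (chromosome 11, 100859351 to 100885169, plus strand, and 100780731 to 100850724, minus strand), had lower means with acLDL. Their signal was low beside that of the other members, with mean levels at percentiles 58.5 and 60.4 of all listed genes. Stat5a was at 129.7, 53.7, 40.5 and 43.8 in acLDL libraries 1 to 4 and at 101, 95, 70.9 and 73.2 in controls. Libraries 2 to 4 of the acLDL group were below every control, and acLDL library 1 was the highest of all 8. The log2 fold change of Stat5a was -0.46 (SE 0.38, limma's adjusted p = 0.467), and -0.81 without acLDL library 1 (adjusted p = 0.068). With the short-transcript covariate it turned to 0.03. Stat5b was at 81.3, 58.9, 29.4 and 33.7 in acLDL libraries 1 to 4 and at 26.8, 192, 96.9 and 144 in controls. Control library 1 was the lowest of all 8 libraries for Stat5b, and the other 3 controls were above every acLDL library. Its log2 fold change was -0.92 (SE 0.58, limma's adjusted p = 0.362), with a 95% interval from -2.24 to 0.40. It was -0.28 with the short-transcript covariate, -1.47 without control library 1 and -0.59 without control library 2. The 2 transcripts share 21.7% (of Stat5a) and 16.1% (of Stat5b) of their stretches of 31 bases, and 0 in the last 500 bases. The log2 ratio of Stat5a to Stat5b averaged 0.31 ± 0.32 with acLDL and -0.15 ± 1.28 in controls, a difference within the spread of the controls.

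Cish, the STAT5-induced inhibitor that competes for docking sites on the receptor (chromosome 9, 107296026 to 107302784, plus strand), had a higher mean with acLDL. Its signal was 2518, 3052, 1773 and 2482 in acLDL libraries 1 to 4 and 2084, 1572, 1401 and 1765 in controls. Libraries 1, 2 and 4 of the acLDL group were above every control, and acLDL library 3 was below control library 1. The means were 2456 ± 525 (SD, n = 4) and 1706 ± 293. The log2 fold change was 0.51 (SE 0.21, limma's adjusted p = 0.298). It was 0.49 without acLDL library 1 (adjusted p = 0.14). It was 0.57 both without acLDL libraries 2 and 3 (adjusted p = 0.994) and with the short-transcript index as a covariate (adjusted p = 0.978). Among the 9 members, Cish moved least across these fits. Among the 7 members with a promoter entry, Cish alone had a pair of STAT5 palindromes in the window printed above. Any link between them and its signal was not tested.

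Socs2, a related feedback inhibitor that recruits a ubiquitin ligase to cytokine receptors (chromosome 10, 95385362 to 95417180, minus strand), was at 1141, 1696, 2021 and 1697 in acLDL libraries 1 to 4 and at 1243, 833, 1091 and 799 in controls. The acLDL libraries 2 to 4 were above every control, and acLDL library 1 was below control library 1. Its log2 fold change of 0.72 (SE 0.24) had limma's adjusted p = 0.298. It was 0.88 without acLDL library 1 (adjusted p = 0.028). It was 0.51 without acLDL libraries 2 and 3 (adjusted p = 0.994), and 0.38 with the short-transcript covariate (adjusted p = 0.986). The log2 ratio of Socs2 to Cish averaged -0.59 ± 0.57 with acLDL (SD, n = 4) and -0.79 ± 0.33 in controls, and the groups overlapped.

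Csf1r, the receptor tyrosine kinase for macrophage colony-stimulating factor and interleukin 34, does not signal through the beta chain and is used here for comparison with the GM-CSF receptor. It was at 4087, 8639, 9634 and 5872 in acLDL libraries 1 to 4 and at 5577, 3838, 3929 and 3899 in controls. Libraries 2 to 4 of the acLDL group were above every control, with acLDL library 4 only slightly above control library 1. Means were 7058 ± 2541 and 4311 ± 845 (SD, n = 4), and the log2 fold change was 0.65 (SE 0.29, limma's adjusted p = 0.298). It was 0.89 without acLDL library 1 (adjusted p = 0.032). It was 0.20 without acLDL libraries 2 and 3 (adjusted p = 0.994) and 0.09 with the short-transcript covariate (adjusted p = 0.999). The log2 ratio of Csf2ra to Csf1r averaged -0.03 ± 0.54 with acLDL and -0.01 ± 0.33 in controls, so the 2 receptors did not shift against each other beyond the spread between libraries.

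**Figure D3:**
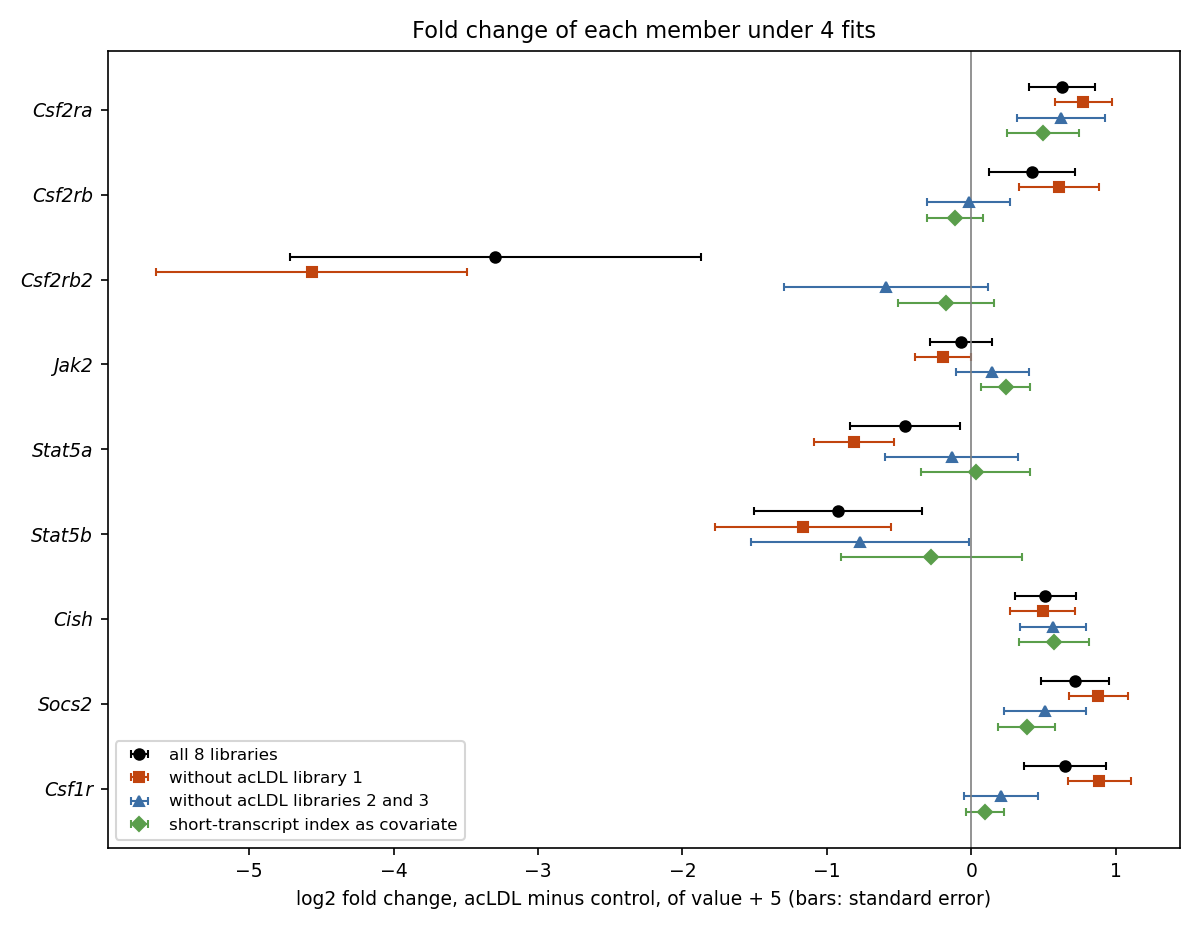
Log2 fold change of 9 genes, acLDL minus control, of the normalized signal plus 5 (horizontal axis, bars are standard errors) in 4 fits. Cish and Csf2ra keep values from 0.49 to 0.78 in all 4, while Csf2rb2 goes from -4.57 to -0.17 and Csf1r from 0.89 to 0.09.

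Patterns over the 8 libraries were compared as the root mean square difference of log2 deviations. This is small for genes that vary alike and also for genes that both vary little. It is large where 1 gene ranges much more widely than the other. Among members, Csf2rb and Csf1r were the closest pair (0.187), followed by Socs2 and Csf1r (0.212) and Csf2ra and Socs2 (0.279). Csf2rb2 and Csf1r were farthest apart (3.16). The 2 feedback inhibitors, Cish and Socs2, differed by 0.416, and Stat5a and Stat5b by 0.841. Over all tested genes, those close to Csf1r included Rplp2 (0.0421) and Zfp622 (0.0659), and to Csf2rb they were Jarid2 (0.0794), Hadha (0.0812) and Krtcap2 (0.0972). Zfp329 (0.0702), Prpf39 (0.18) and Hnrnpc (0.181) were closest to Cish, and Rala (0.0691), Baz1a (0.101) and Itgb1bp1 (0.105) to Socs2. For Csf2ra they were Tbl1xr1 (0.13), Fubp1 (0.139) and Ier3ip1 (0.154), and for Csf2rb2 they were Gm28037 (0.165), Gm6169 (0.168) and Cd63-ps (0.235). Rnf7 (0.101) and Aebp2 (0.103) were among the closest to Jak2. Stat5a had Mgat5 (0.193), Eif4h (0.202) and Trabd (0.205), and Stat5b had Ccl2 (0.315), Ptpn12 (0.323) and Smim14 (0.332). All points share the same libraries and their short-transcript index.

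The rest of the pathway was read from lists named from general knowledge, and no gene of any list passed limma's threshold. Of 5 ligand genes, 1 was tested, Csf1, which encodes macrophage colony-stimulating factor, with a mean of 109 ± 20.7 with acLDL and 148 ± 50.5 in controls and a log2 fold change of -0.38 (-0.14 once the short-transcript index was a covariate). The genes of GM-CSF itself (Csf2) and of interleukins 3, 5 and 34 are not rows of the table used here.

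Of 19 tested chains of other cytokine receptors, the mean log2 value was higher with acLDL for 8 and lower for 11, and the median log2 fold change was -0.57, or 0.04 once the short-transcript index was a covariate. At an unadjusted p under 0.05 there were 3 higher and 2 lower, against 7.42% and 8.93% of all tested genes. The 2 lower genes, named after their values were seen, were Il2rg, the common gamma chain, and Crlf2. Their log2 fold changes were -2.76 and -2.50, or -0.22 and -0.49 with the covariate. Il4ra, the alpha chain for interleukins 4 and 13, averaged 925 ± 329 with acLDL (SD, n = 4) and 467 ± 123 in controls, with log2 fold change 0.94 (0.42 with the covariate) and limma's adjusted p = 0.298. Il21r averaged 1663 ± 382 and 1086 ± 208, with log2 fold change 0.60 (0.24 with the covariate). Il2ra, a chain of the interleukin 2 receptor, was chosen after its values were seen. Il2ra alone of these 19 had groups that did not overlap, against 5.64% of all tested genes. It was at 77.7, 65.8, 93.0 and 119 in acLDL libraries 1 to 4 and from 46.8 to 58.7 in controls. Its log2 fold change was 0.66, and 0.69 with the short-transcript covariate. Il3ra, the alpha chain of the interleukin 3 receptor, was also chosen after its values were seen, because it shares the beta chains. It averaged 44.5 ± 21.7 and 26.3 ± 10.4, with log2 fold change 0.61 (0.08 with the covariate, and limma's adjusted p = 0.404 without it).

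Among kinases and factors beside JAK2 and STAT5, Jak3, which serves receptors with the common gamma chain, averaged 130.3 ± 38.9 in the acLDL group (SD, n = 4) and 69.4 ± 26.6 in the control group, with log2 fold change 0.88 (0.48 with the covariate). Tyk2, a kinase of interferon receptors, averaged 29.1 ± 23 and 90.2 ± 43.2. Its log2 fold change of -1.58 became -0.38 with the covariate. Of 5 other STAT genes, mean log2 values were higher for 3 and lower for 2 (median 0.04). Stat4 was listed at 650.4 in acLDL library 1, 0 in acLDL libraries 2 and 3 and 86.3 in acLDL library 4, against 78.1 to 453 in controls. On the log2 scale Stat4 differed by -2.87, and by 0.33 after the covariate.

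The other inhibitors differed in both directions. Of 5 other SOCS genes, mean log2 values were higher for 3 and lower for 2 (median 0.08), and none reached an unadjusted p under 0.05. Socs1, induced by interferon, was at 313, 38.9, 33.2 and 318 in acLDL libraries 1 to 4 and from 219 to 390.3 in controls. It was low in acLDL libraries 2 and 3 alone, and its log2 fold change of -1.45 became -0.02 with the covariate. Socs7 averaged 157 ± 57.5 and 212 ± 39.2, with log2 fold change -0.49 (0.03 with the covariate). Of 13 other inhibitors of JAK-STAT signalling, mean log2 values were higher for 4 and lower for 9 (median -0.13). Ptpn2, a phosphatase that acts on JAK kinases, averaged 39.6 ± 42.0 with acLDL and 107 ± 44.2 in controls, with log2 fold change -1.59 (-0.67 with the covariate). Pias1, an inhibitor of activated STAT proteins, averaged 307 ± 84.0 and 196 ± 17.8, with log2 fold change 0.60 (0.39 with the covariate).

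STAT5 target genes other than the members had no common direction: of 16 tested, mean log2 values were higher for 8 and lower for 8, and the median was -0.11. Pim1, a survival kinase induced by STAT5, was at 1526, 1625, 2230 and 1587 in acLDL libraries 1 to 4 and at 3267, 2586, 1797 and 2657 in controls. Its mean was lower with acLDL, opposite to Cish and Socs2, and control library 3 was below acLDL library 3. The log2 fold change of Pim1 was -0.55 (SE 0.22, limma's adjusted p = 0.298), and -0.81 with the covariate. Mcl1, a survival protein of the BCL2 family, was above every control in all 4 acLDL libraries, with means of 3446 ± 515 and 2652 ± 213 and a log2 fold change of 0.37 (0.21 with the covariate). Mcl1 alone of these 16 had groups that did not overlap, against 5.64% of all tested genes.

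Of 19 adaptors and kinases that work with the GM-CSF receptor, mean log2 values were higher for 9 and lower for 10 (median -0.08). Syk, a tyrosine kinase of immune receptors, averaged 485 ± 127 with acLDL (SD, n = 4) and 325 ± 49.5 in controls without overlap, with log2 fold change 0.55 (0.27 with the covariate). Syk alone of these 19 had groups that did not overlap, against 5.64% of all tested genes. Fes, a cytoplasmic tyrosine kinase of myeloid cells, averaged 113 ± 147 and 226 ± 79.7, with acLDL library 1 the highest of all libraries at 333. For Fes the log2 fold change was -1.60 (-0.34 with the covariate). Of 11 genes tied to the M-CSF receptor, mean log2 values were higher for 3 and lower for 8 (median -0.40, and -0.07 with the covariate). Tyrobp, a short transcript that encodes a signalling adaptor, was at 3413, 256, 33.7 and 1217 in acLDL libraries 1 to 4 and from 2467 to 3720 in controls. Its log2 fold change was -2.73 (-0.26 with the covariate).

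**Figure D4:**
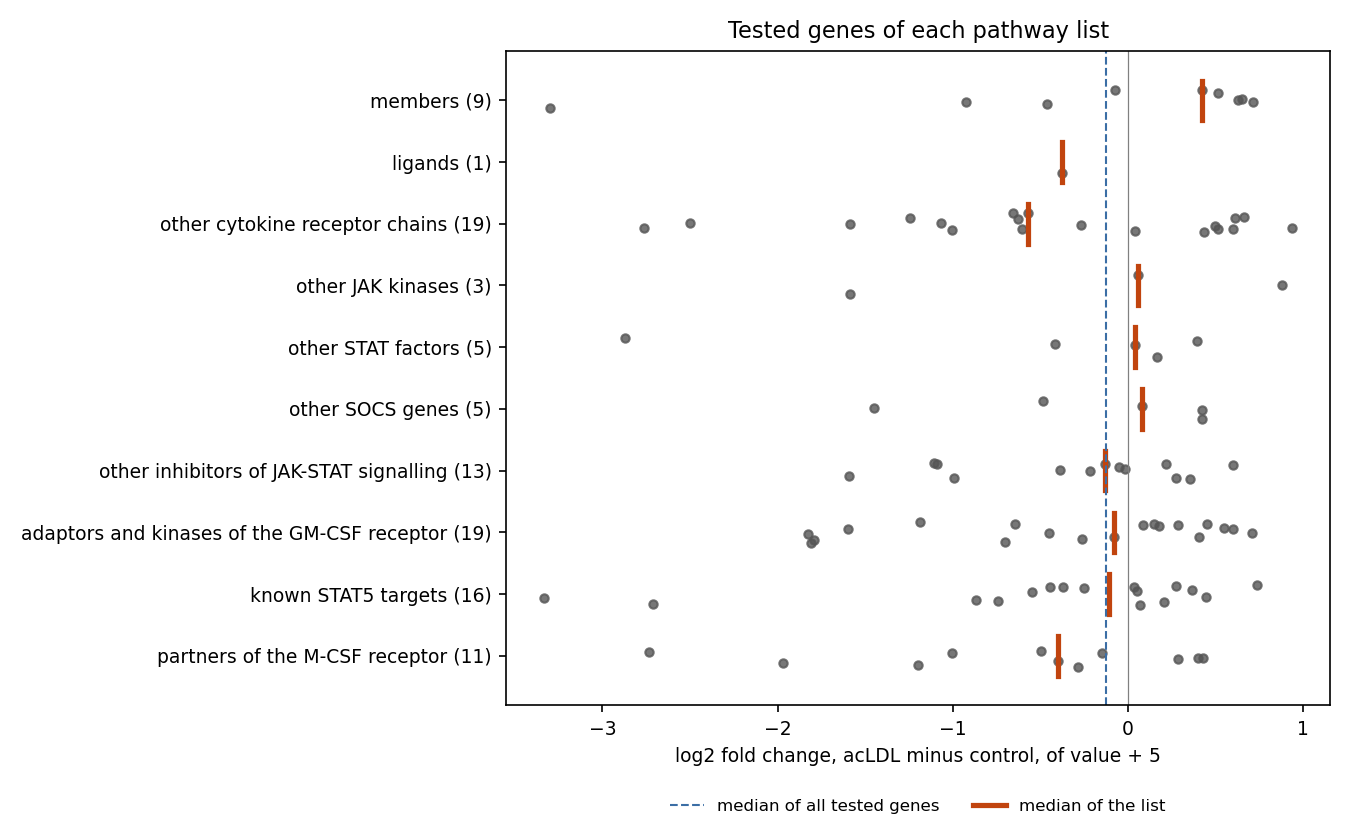
Log2 fold change (horizontal axis, acLDL minus control, of the normalized signal plus 5) of each tested gene (grey points) by pathway list, with the number tested in brackets; orange bars are list medians and the dashed line the median of all tested genes (-0.13). The 9 members have a median of 0.42, and the 16 other STAT5 targets one of -0.11.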

How the data were processed

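Poly(A) RNA from 8 libraries was prepared with a QuantSeq 3' kit per the labels' protocols; the design text speaks of 5' quantification. The submitters' processing notes list bcl2fastq 2.20, kallisto (without a version) and mm10. The sources used here do not give the annotation, filters or normalization. The authors deposited 1 normalized signal per gene and library. The table is named as raw counts, but its values are not whole and its totals are nearly equal. At a tolerance of 0.01, 11.3% to 13.5% of low values fell on whole multiples of 1 step per library, against 2% by chance, so reads could not be recovered and no count model or counting interval was used. Totals divided by these steps would come to 3230980 to 5458540 reads per library, a rough estimate, since most low values lie on no step.

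Genes with a signal of at least 10 in at least 4 libraries were tested with limma 3.58.1 (R 4.3.3) on log2(signal + 5), with variance trend, robust moderation and Benjamini-Hochberg adjustment over all tested genes at 0.05. Fold changes on this scale understate those of low genes. Members, lists and alternatives were chosen with earlier results of these data known. Named genes are the members, the 2 genes of each pathway list with the smallest p, and the 3 genes nearest each member in pattern; some that these rules take are not reported here, and others are said to be chosen after their values were seen. Longest coding transcripts came from GENCODE mouse release 21 and matched 86.2% of genes. Alternatives were other scalings, pseudocounts (1 and 20), filters (none and 40), a replicate block, array weights, the short-transcript covariate and leaving out libraries. Figures and tables used Python 3.11.15.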

Additional observations from a re-analysis of the deposited data

Results flagged for a closer look

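In 26 groups of 4 values (9 members and 4 ratios in each group), 2 had a library set apart from the other 3 by more than Dixon's 95% critical value. Chance alone flags about 1 in 20 groups. Stat5a in acLDL library 1, at 129.7 against 40.5 to 53.7 in the other acLDL libraries, had a gap of 0.852 of the group's range. Csf1r in control library 1, at 5577 against 3838 to 3929 in the other controls, had a gap of 0.948.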

How the results depend on the processing

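The count of members past limma's threshold, 0 with all libraries, went from 0 to 4 when libraries were left out singly, and that over all genes from 0 to 2190, both highest without acLDL library 1. Array weights gave 5 members (Csf2ra, Cish, Socs2 and Csf1r higher, Csf2rb2 lower) and 1957 genes, and quantile normalization 0 members and 1 gene. The cause of these differences was not tested. At an unadjusted p under 0.05, between 1 and 6 of the 9 members were past it over all these settings. There were 6 with array weights, beside 4112 of 10091 genes, and 1 each with the short-transcript covariate (505 genes) and without acLDL libraries 2 and 3 (305 genes). Csf2ra, Csf2rb2, Stat5b, Cish, Socs2 and Csf1r kept their direction in all 18 alternatives. Without acLDL libraries 2 and 3 the log2 fold change turned to -0.018 for Csf2rb and 0.15 for Jak2, and with the short-transcript covariate to -0.11 for Csf2rb, 0.24 for Jak2 and 0.031 for Stat5a. That of Jak2 ran from -0.20 to 0.0030 when each library was left out. The difference in log2 ratio turned to -0.055 for Socs2 to Cish and 0.42 for Csf2ra to Csf1r without acLDL libraries 2 and 3, and with single libraries left out these ran from -0.056 to 0.39 and from -0.23 to 0.18. Quantile normalization moved the median log2 fold change of all genes from -0.13 to 0.15. The replicate numbers are not stated to pair libraries, and same-numbered deviations correlated from -0.553 to 0.0341. With the replicate block the counts were 0 genes and 0 members, with 730 genes at an unadjusted p under 0.05 against 1650 without it. Signals near the table's floor of 5 and the 4 libraries per group limit precision.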
